A study of Danio rerio with 4 samples.

Results

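F-box proteins are the exchangeable substrate receptors of the SCF ubiquitin ligases, in which the adaptor Skp1 links the F-box to the scaffold Cul1 and the RING protein Rbx1. Each receptor brings its own substrates to the ligase, so the set of F-box proteins that a cell makes decides which proteins the SCF ligases can tag. By convention the genes are named for what lies outside the F-box, with fbxw for WD40 repeats, fbxl for leucine-rich repeats and fbxo for any other region. Members act in the cell cycle, in p53 turnover, in Wnt signalling and in muscle wasting, where FoxO factors drive several of them in mouse. Here the F-box genes were taken as every row of the expression table whose symbol begins with fbxo, fbxl or fbxw and a number, leaving out fbxw7, a gene of the study's title. The rule gave 71 of 32057 gene identifiers, of which 44 were fbxo genes, 19 fbxl genes and 8 fbxw genes.

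Poly-A selected RNA of whole zebrafish embryos was sequenced in 4 libraries, 2 for each genotype. The quadruple mutants carried mdm2-/-, puma-/-, noxa-/- and p21-/-. The sibling controls, from the same batch, were mdm2+/- or mdm2+/+ and also carried puma-/-, noxa-/- and p21-/-. The comparison therefore concerned the loss of mdm2, the ligase that restrains p53, in embryos of both genotypes that lacked the death genes puma and noxa and the kinase inhibitor p21. In the titles the mutant samples are also termed abnormal and the sibling samples normal, so that effects of genotype and of appearance cannot be told apart. Titles give an age of 18 hours post-fertilization and the tissue label gives 30, and the labels do not say how many embryos went into a library or whether libraries came from separate clutches. The p-values thus measure only the spread between these libraries, which may be technical. Values were TPM, which are corrected for transcript length and scaled to 1000000 per library, so the sequencing depth is unknown.

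Of the 71 F-box genes, 59 reached 1 TPM in at least 2 libraries and were tested. Among these, 23 rose and 14 fell in the quadruple mutants and 22 did not pass (limma on log2(TPM + 1), Benjamini-Hochberg adjusted p under 0.05). Calls were common in this comparison, since 65.6% of all 16172 tested genes were called, 28% as higher and 37.7% as lower. The F-box genes were called at 62.7%, which is close to that background, with 39% higher and 23.7% lower. Their median log2 change was 0.16, against -0.10 for all tested genes. Part of this lean came from the 10 fbxo44 and fbxo6 genes described below, of which 8 were tested and 6 rose. Among the 51 other tested F-box genes, 33.3% were called higher and 25.5% lower, with a median log2 change of 0.04. With a log2 change of at least 1 in either direction, 10 of the 59 F-box genes were higher and 3 lower. The background at this size was 9.54% and 11.5% of all tested genes. Which genes reached 1 depended on the pseudocount. With 0.1 TPM fbxl20 (1.16), fbxl7 (1.03), fbxo15 (1.09), fbxo21 (-1.16), fbxo6.2 (-1.29) and fbxo43 (-1.02) did as well. With 5 TPM only fbxo30 (2.98), fbxo44.9 (2.29), fbxo25 (1.28), fbxo44.1 (1.12) and fbxo5 (-1.75) did. Among the called genes, fbxo44.10 and fbxl7 reached 1 TPM in mutants only and fbxo43 in controls only. The filter thus fixed the direction in which these could be called, and fbxo44.10 is among the 10. On the log2(TPM + 1) scale the changes of at least 1 were all among fbxo genes. With a pseudocount of 0.1 TPM they included fbxl20 and fbxl7. By calls of any size, 18 of 36 tested fbxo genes rose and 7 fell. The counts were 5 and 6 of 16 fbxl genes and 0 and 1 of 7 fbxw genes. No test of the difference between the families was made. In 50 of the 59 genes the mutant libraries did not overlap the controls, a background of 83.3% of all tested genes, with 32 on the higher side (background 35.8%) and 18 on the lower (background 47.5%).

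**Figure D1:**
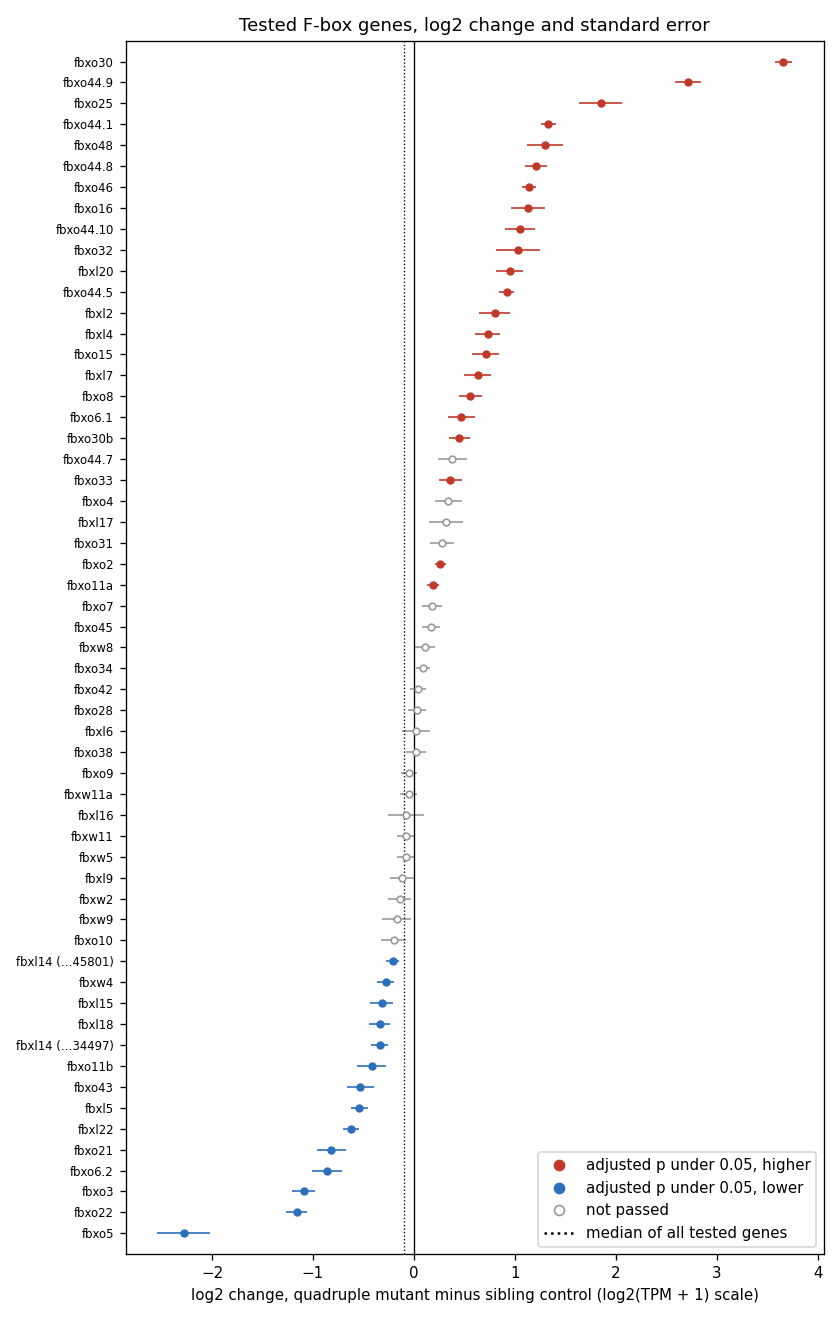
Log2 change of each tested F-box gene described here (points, quadruple mutant minus sibling control, from log2(TPM + 1) values) with its standard error (bars), n = 2 libraries per genotype. Genes called higher run up to 3.66 for fbxo30 and those called lower run down to -2.28 for fbxo5, while the dotted line marks the median of all tested genes at -0.10.

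The number of F-box genes called lower depended on the scaling and on the controls. Median ratio scaling moved the median of all tested genes by 0.12, to 0.02. Then 30 F-box genes were higher and 8 lower, or 78.9% of calls higher against 62.2% as deposited. Over all tested genes the share of calls that were higher moved as well, to 51.3% against 42.6% as deposited. Without control library 1 the counts were 17 higher and 7 lower, and without control library 2 they were 17 and 8, with 50.3% and 50.4% of all genes called. In total 14 of the 37 calls were lost without at least 1 library and 23 were kept without each library that allowed a test. None of the 13 genes with a log2 change of at least 1 lost its call in this way where it was tested. One of them, fbxo44.10, met the filter through its mutant values alone and was not tested when either mutant library was left out.

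**Figure D2:**
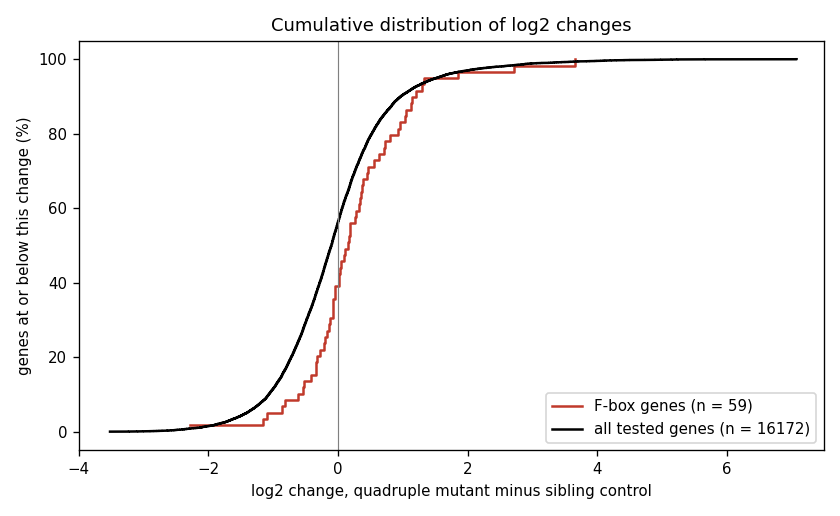
Cumulative share of genes (vertical axis, %) at or below each log2 change (horizontal axis, quadruple mutant minus sibling control) for the 59 tested F-box genes and for all 16172 tested genes, which include them. The F-box curve lies to the right through the middle of the range, with medians of 0.16 and -0.10, and the curves meet towards the ends.

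The F-box gene that rose most was fbxo30 (ENSDARG00000058561), known as MUSA1 in mouse, where it is a FoxO-driven ligase of muscle wasting and also acts on the spindle motor Eg5. It was at 75.01 and 68.63 TPM in quadruple mutants, against 4.88 and 4.61 TPM in the sibling controls. The mutant libraries lay far above both controls, with a mean TPM 15.1 times as high (log2 change 3.66, SE 0.0851, adjusted p = 3e-06), which gave it rank 102 among the rises of all tested genes. Its copy fbxo30b rose much less, to 6.87 and 6.39 TPM in mutants against 4.71 and 4.44 TPM in controls (log2 change 0.45, SE 0.107, adjusted p = 0.0112). That call was lost without control library 2, at an adjusted p of 0.0752. Of the summed TPM of both copies, fbxo30 made up 91.6% and 91.5% in mutant libraries against 50.9% in each control library.

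Members of a list drawn up around muscle wasting and FoxO regulation in mammals, fbxo30 and fbxo30b included, moved both ways. The list is wider than its name, as for fbxo25, a relative of fbxo32, and the sarcomere gene fbxl22 no link to either is given here. Of 8 tested members of this list, which held 10 genes, 4 rose (50%, background 28%) and 2 fell (25%, background 37.7%). The risers were fbxo30, fbxo30b, fbxo32 and fbxo25. The median log2 change was 0.37 with the fbxo30 copies counted, against -0.10 for all tested genes. The atrophy gene fbxo32, or atrogin-1, a FoxO target in mouse muscle, had 6.33 and 6.54 TPM in mutants against 3.59 and 1.89 TPM in controls. Its mutant values were alike and its control values were not, and the call held (log2 change 1.03, SE 0.222, adjusted p = 0.00774).

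The close relative of fbxo32, fbxo25, had 14.43 and 19.51 TPM in mutants against 4.89 and 3.12 TPM in controls. Its protein is a mainly nuclear receptor in human cells, and the libraries of each genotype stood well apart (log2 change 1.85, SE 0.213, adjusted p = 0.000608). In contrast fbxo21, the atrophy ligase SMART of mouse muscle, fell to 1.29 and 1.38 TPM in mutants, against 2.75 and 3.52 TPM in controls (log2 change -0.82, SE 0.143). The gene fbxl22, whose product acts at the sarcomeric Z-disc in mouse heart, was at 15.01 and 15.66 TPM in mutants against 24.62 and 23.63 TPM in controls (log2 change -0.62, SE 0.0779, adjusted p = 0.000858). Neither genotype overlapped the other for these genes, as for 83.3% of all tested genes.

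Of the remaining list members fbxo9 (-0.05) and fbxo31 (0.28) did not pass, and both identifiers of the muscle gene fbxo40 stayed at or below 0.54 TPM. Muscle markers were present in whole embryos, and none of the 5 measured was at 0 in any library. Of 4 tested, 3 fell (75%, background 37.7%) and 0 rose (background 28%), and 1 tnnt3 (ENSDARG00000068457, 0.09) did not pass. Most of their summed TPM, 568 to 607 in mutants and 911 to 934 in controls, was from actc1b (535.01 and 490.10 against 765.59 and 782.60 TPM). The part of muscle content in the values of fbxo32, fbxo30 and fbxl22 was not tested. In whole embryos fewer cells of a type and less RNA per cell cannot be told apart.

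**Figure D3:**
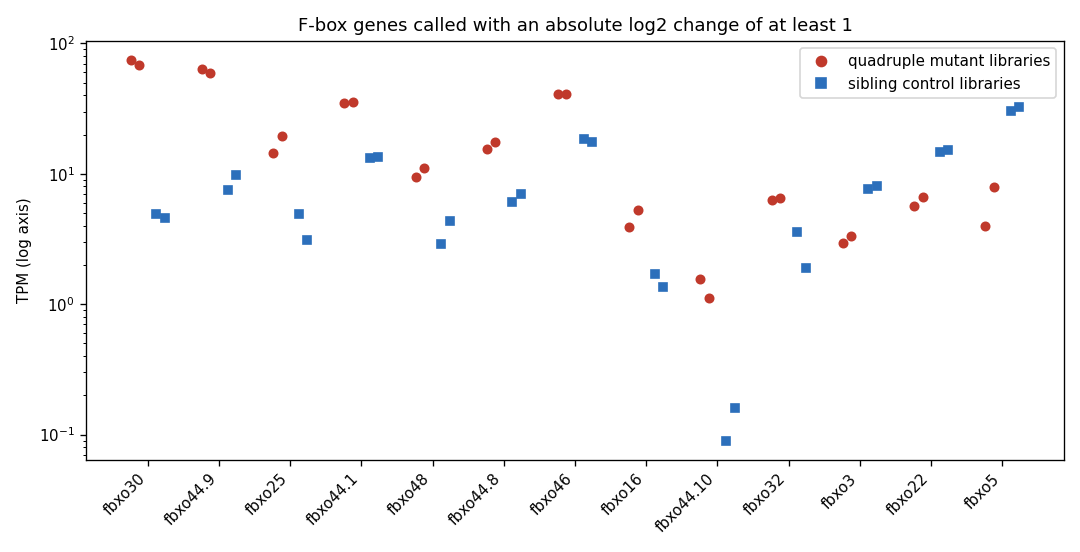
TPM in each library (log axis) for the 13 F-box genes called with an absolute log2 change of at least 1, quadruple mutants as circles and sibling controls as squares, ordered by log2 change. The thresholds favour genes whose genotypes do not overlap, and 83.3% of all tested genes do not overlap. In every gene shown the mutant libraries lie on one side of both controls. They run from fbxo30 at 75.01 and 68.63 against 4.88 and 4.61 TPM to fbxo5 at 3.96 and 7.95 against 30.24 and 32.39 TPM.

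In mammals Fbxo2, Fbxo6 and Fbxo44 share a domain with which some of them recognise N-linked glycans on proteins returned from the endoplasmic reticulum, and zebrafish have many copies. Of 9 tested genes in this list of 11, 7 rose, 1 fell and 1 did not pass, with a median log2 change of 0.92 against -0.10 for all tested genes. The share called higher was 77.8%, beside 28% of all tested genes, but 1 of the 7, fbxo44.10, met the filter through its mutant values alone and the calls of 2 others, fbxo6.1 and fbxo2, were lost without at least 1 library. The names put 10 of the 11 in the fbxo44 and fbxo6 series. In the RefSeq gene table of assembly GRCz12tu, 9 of these 10 lie in 1 run together with 2 genes whose symbols are not in the expression table, and fbxo6.1 is annotated there as a pseudogene. How reads were divided between such copies was not given in the sources used here, so the values of single copies are uncertain.

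The largest change in the run was that of fbxo44.9 (ENSDARG00000071029), at 63.66 and 59.33 TPM in mutants against 7.46 and 9.82 TPM in controls (log2 change 2.71, SE 0.129, adjusted p = 2.7e-05). For fbxo44.1 the libraries held 34.71 and 35.49 TPM in mutants against 13.25 and 13.55 TPM in controls (log2 change 1.33, SE 0.0731), with the libraries of each genotype almost equal. Both genes moved up in the order of F-box levels, as fbxo44.9 was at rank 4 in mutants and rank 26 in controls, and fbxo44.1 at rank 8 in mutants and rank 20 in controls.

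Next in size, fbxo44.8 had 15.56 and 17.42 TPM in mutants against 6.13 and 7.02 TPM in controls (log2 change 1.21, SE 0.11). The more even fbxo44.5 had 27.88 and 28.93 TPM in mutants against 14.51 and 14.52 TPM in controls (log2 change 0.92, SE 0.0748). Low copies rose too: fbxo44.10 was at 1.55 and 1.12 TPM in mutants against 0.09 and 0.16 TPM in controls (log2 change 1.05), and fbxo6.1 at 1.66 and 1.76 against 1.05 and 0.86 TPM (log2 change 0.47). With both controls under 1 TPM, fbxo44.10 met the filter through its mutant values alone, so it could be tested only if it was higher there, and it was not tested when either mutant library was left out. The call of fbxo6.1 was lost without either control library and without mutant library 2.

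Not all copies moved upwards. In mutant libraries fbxo6.2 fell to 1.34 and 0.92 TPM, against 2.77 and 2.94 TPM in controls (log2 change -0.86, SE 0.147, adjusted p = 0.00294). The copy fbxo44.7 did not pass, at 2.97 and 3.61 TPM in mutants against 2.07 and 2.52 TPM in controls (adjusted p = 0.0568), although it did without mutant library 1 (0.0471), under median ratio scaling (0.0242), under quantile normalization (0.0272), without the variance trend (0.0434) and with the replicate number as a block (0.0459). Neither fbxo44.3 nor fbxo6.3 was tested, since only 1 value in 1 library, 1.14 TPM of fbxo6.3 in mutant library 2, reached 1 TPM. Summed over the 10 copies, the TPM was 150 in each mutant library against 48.4 and 52.4 in the controls, or 2.97 times as high.

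The abundant relative fbxo2 rose slightly, to 241.31 and 254.67 TPM in mutants against 204.27 and 209.19 TPM in controls (log2 change 0.26, SE 0.0533, adjusted p = 0.00619). Its call was lost without control library 1, at an adjusted p of 0.0695. Genes beside the run, named after their values were seen, went both ways: mfsd2al1 on one side was higher (log2 change 1.44), cdc42l2 on the other side was higher by 0.49, and dnmt3bb.3 and dnmt3bb.2, the next genes, were lower (-2.28 and -1.81).

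**Figure D4:**
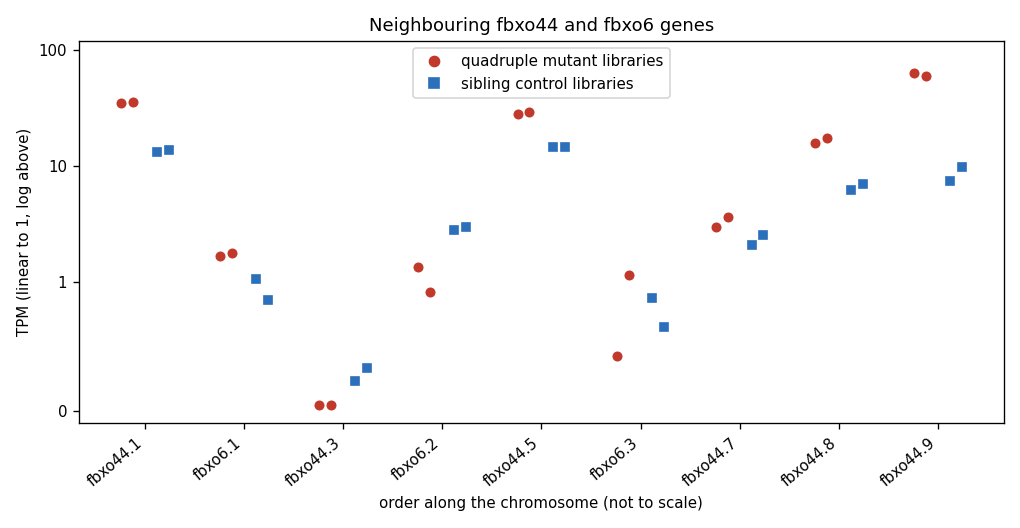
TPM in each library (linear to 1, log above) for the 9 fbxo44 and fbxo6 genes that lie in 1 run in the GRCz12tu annotation, in their order along the chromosome, without the 2 other genes between them and not to scale, quadruple mutants as circles and sibling controls as squares. The copies at both ends, fbxo44.1 and fbxo44.9, and the inner copies fbxo6.1, fbxo44.5, fbxo44.7 and fbxo44.8 lie higher in both mutant libraries, though fbxo44.7 did not pass. Lower in both lie fbxo6.2 and the untested fbxo44.3, while fbxo6.3, also untested, overlaps.

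Among F-box genes of the cell cycle, the deepest fall was that of fbxo5, which encodes Emi1, the inhibitor of the anaphase-promoting complex that keeps cyclins stable through S and G2 phase. Its transcripts were at 3.96 and 7.95 TPM in mutants against 30.24 and 32.39 TPM in controls. Both mutant libraries lay far below the controls but differed from each other, mutant library 2 being the higher (log2 change -2.28, SE 0.262, adjusted p = 0.000612). Without mutant library 1 the log2 change was -1.85 and without mutant library 2 it was -2.70.

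The related gene fbxo43, or Emi2, which holds the same complex in check in meiosis, was low throughout, at 0.66 and 0.53 TPM in mutants against 1.41 and 1.21 TPM in controls (log2 change -0.53, SE 0.135, adjusted p = 0.0143). As both mutants were under 1 TPM, it could enter the test only by being lower there, and its call was lost without mutant library 2 (adjusted p = 0.0552). Across the list of cell cycle and centrosome genes, 11 of 13 were tested. Of these, 3 rose (27.3%, background 28%), 3 fell (27.3%, background 37.7%) and 5 did not pass. Their median log2 change was 0.11, against -0.10 for all tested genes. The risers were fbxo30, fbxo30b and fbxl7, a receptor for Aurora A in human cells, at 1.73 and 2.12 TPM in mutants against 0.89 TPM in both controls (log2 change 0.63). Like fbxo44.10, fbxl7 met the filter through its mutant values alone, and its adjusted p was 0.0548 and 0.0547 without control library 1 and 2.

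Also in this list fbxl15 fell, whose product removes the BMP regulator Smurf1 in human cells, at 3.41 and 3.66 TPM in mutants against 4.64 and 4.69 TPM in controls (log2 change -0.32, adjusted p = 0.0431), a call lost without any 1 of the 4 libraries. Receptors for cyclin D1 in mammals did not pass, with log2 changes of 0.34 for fbxo4 (95% interval 0.02 to 0.67), 0.28 for fbxo31 and 0.11 for fbxw8 (-0.12 to 0.34). The intervals are for single genes without adjustment. The centrosome gene fbxw5 (-0.08) and the spindle pole gene fbxo28 (0.03), the second most abundant F-box gene in both genotypes, did not pass either. Under median ratio scaling fbxo4 and fbxo31 did pass as higher (adjusted p = 0.0267 and 0.028). They also passed under quantile normalization (0.0315 and 0.0318) and without the variance trend (0.0417 and 0.0346).

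A list of 6 genes held those whose products bind p53, p73 or Bcl6 or hold BTB proteins in quality control. Of these genes, 1 rose (16.7%, background 28%), 2 fell (33.3%, background 37.7%) and 3 did not pass (median 0.10). The one with the clearest change was fbxo22, which in mammalian cells marks methylated p53 for degradation. It was at 5.70 and 6.61 TPM in mutants against 14.67 and 15.24 TPM in controls (log2 change -1.16, SE 0.105, adjusted p = 0.000242). Both mutant libraries were at less than 0.5 of the level of either control.

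For fbxo11, a receptor for Bcl6 and Snail in mammals, the copies went opposite ways by small amounts. The more abundant fbxo11a rose to 51.34 and 50.88 TPM in mutants, against 44.71 and 44.65 TPM in controls (log2 change 0.19, SE 0.0605, adjusted p = 0.0332). The copy fbxo11b fell to 17.46 and 12.94 TPM, against 19.76 and 21.27 TPM in controls (log2 change -0.42, SE 0.143, adjusted p = 0.041). The call of fbxo11a was lost without either control library, and that of fbxo11b without either of them and without mutant library 2, where its log2 change was -0.22. The p53 receptor fbxo42 of human cells had 28.59 and 27.38 TPM in mutants against 28.62 and 25.95 TPM in controls. It did not pass (log2 change 0.04, 95% interval -0.16 to 0.23), nor did fbxo45 (0.17) or fbxl17 (0.32). Under median ratio scaling fbxo45 did pass as higher (log2 change 0.29, adjusted p = 0.0252). Without mutant library 2 the log2 change of fbxl17 was 0.52.

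The remaining genes with a log2 change of at least 1 belonged to none of these groups. In the mutants fbxo46, a receptor for the cyclin D1 receptor Fbxo31 in human cells, had 40.98 and 40.96 TPM against 18.50 and 17.67 TPM in controls (log2 change 1.14, SE 0.0706, adjusted p = 6.6e-05). Its mutant libraries were nearly equal, at a mean 2.27 times that of the controls. For fbxo48, a receptor for active AMPK in human cells, the values were 9.47 and 11.06 TPM in mutants against 2.90 and 4.36 TPM in controls (log2 change 1.30, SE 0.177), and for fbxo16 they were 3.89 and 5.24 TPM in mutants against 1.71 and 1.35 TPM in controls (log2 change 1.13). The only other fall of this size was that of fbxo3, a receptor for Fbxl2 in mammalian cells, to 2.97 and 3.36 TPM in mutants against 7.66 and 8.07 TPM in controls (log2 change -1.09, SE 0.113, adjusted p = 0.0004). Under median ratio scaling that change was -0.97.

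Smaller rises included both members of a pair of leucine-rich repeat receptors. The membrane-bound receptor gene fbxl2 was at 7.28 and 6.35 TPM in mutants against 2.99 and 4.06 TPM in controls (log2 change 0.80, SE 0.153, adjusted p = 0.00484). Its relative fbxl20, which in mouse neurons controls the release factor Rim1, was at 7.01 and 5.63 TPM in mutants against 2.78 and 2.75 TPM in controls (log2 change 0.95, SE 0.134, adjusted p = 0.00134). With fbxo2 these were the 3 genes that rose (60%, background 28%) among 5 tested genes of the neuronal list, which held 7. The share that fell was 0%, where the background was 37.7%. Of the others fbxl16 (-0.08) and fbxo45 did not pass, and both identifiers of fbxo41 were at or below 0.11 TPM. Neuron markers went the other way, as all 3 fell (100%, background 37.7%), with no marker at 0. Most of their summed TPM, 26.7 to 28.7 in mutants and 68.2 to 71.4 in controls, was from elavl3 (24.21 and 26.54 against 59.60 and 57.16 TPM). The part of neuron content in the values of these F-box genes was not tested.

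Among mitochondrial and iron genes, 1 of 4 rose (25%, background 28%), 1 fell (25%, background 37.7%) and 2 did not pass. The mitochondrial gene fbxl4, which restrains mitophagy in human cells, had 6.04 and 5.51 TPM in mutants against 2.87 and 3.32 TPM in controls (log2 change 0.73, SE 0.121, adjusted p = 0.00274). The iron sensor gene fbxl5, whose product removes an iron regulatory protein when iron is plentiful, had 13.55 and 12.82 TPM in mutants against 19.49 and 19.67 TPM in controls (log2 change -0.54, SE 0.0809, adjusted p = 0.00179). In both genes the genotypes were separated by a wide gap. Not past the test were fbxo7 (0.18), a gene of mitophagy and inherited parkinsonism, and fbxl6 (0.02). Under median ratio scaling fbxo7 did pass as higher (log2 change 0.31, adjusted p = 0.0325).

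Further rises outside the lists were those of fbxo15 and fbxo8. A marker gene of mouse embryonic stem cells, fbxo15 was at 2.50 and 2.30 TPM in mutants against 0.98 and 1.18 TPM in controls (log2 change 0.71, SE 0.13). The Sec7 domain gene fbxo8 was at 6.28 and 5.52 TPM in mutants against 3.69 and 3.68 TPM in controls (log2 change 0.56, SE 0.115).

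A list of 7 genes was drawn up around Wnt, NF-kB and Snail turnover, though no link of fbxl18 to these is given here. Of the 7 genes, 1 rose (14.3%, background 28%), 4 fell, fbxl18 included (57.1%, background 37.7%), and 2 did not pass. Their log2 changes lay between -0.42 and 0.19, with a median of -0.21 against -0.10 for all tested genes. Snail is a substrate of Fbxl14 in mammals and Slug of its frog relative Ppa. The more abundant fbxl14 (ENSDARG00000045801) had 38.58 and 39.32 TPM in mutants against 44.11 and 46.63 TPM in controls (log2 change -0.21, adjusted p = 0.0302). The other fbxl14 (ENSDARG00000034497) had 16.91 and 16.32 TPM in mutants against 22.11 and 20.51 TPM in controls (log2 change -0.34, adjusted p = 0.0118). With fbxl18 (-0.34), a receptor for Fbxl7 in mammalian cells, fbxl15, fbxo11b and fbxw4 they formed the 6 falls that were no longer called under median ratio scaling. The calls of the fbxl14 pair were lost without control library 1, and that of the more abundant copy also without control library 2. For fbxl18 the call was lost without mutant library 1 and without either control library.

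The fbxw11 copies, whose mammalian counterpart is a receptor for beta-catenin and the NF-kB inhibitor, did not pass. Any receptor for these with another kind of symbol lies outside the rule. In mutants fbxw11 was at 30.31 and 34.53 TPM against 34.54 and 33.93 TPM in controls (log2 change -0.08, 95% interval -0.29 to 0.13), and fbxw11a at 14.23 and 15.16 against 15.30 and 15.13 TPM (-0.05, -0.25 to 0.16). The only fbxw call was fbxw4, the hagoromo gene of zebrafish pigment pattern, at 10.50 and 10.84 TPM in mutants against 13.35 and 13.00 TPM in controls (log2 change -0.28, SE 0.086, adjusted p = 0.029). That call was lost without mutant library 1 and without either control library. With fbxw2 (-0.14) and fbxw9 (-0.17), 6 of 7 tested fbxw genes had a negative log2 change, as had 9085 of all 16172 tested genes. Of the 6, fbxw5, fbxw11 and fbxw11a turned positive under median ratio scaling.

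A small rise was that of fbxo33, a receptor for YB-1 in human cells, at 8.58 and 7.42 TPM in mutants against 6.17 and 5.82 TPM in controls (log2 change 0.36), lost without mutant library 1 and without either control. A further list, drawn up under the name of growth hormone and Irs signalling, had fbxl2, fbxw4, fbxw2 and fbxw8 as tested members. Both fbxo40 identifiers in it were not tested. A role of each member in that signalling was not established here, so the counts are those of the list. Of the 4 tested, 1 rose (25%, background 28%), 1 fell (25%, background 37.7%) and 2 did not pass.

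Other members that did not pass, with their log2 changes, were fbxo10 (-0.20), fbxl9 (-0.12), fbxo38 (0.02) and fbxo34 (0.09). Of these fbxo34 did pass as higher under median ratio scaling (log2 change 0.23, adjusted p = 0.0197). Not passing the test does not show equal levels, though for fbxo38 the values were 7.10 and 7.05 TPM in mutants against 6.96 and 6.94 TPM in controls, with a 95% interval of the log2 change of -0.22 to 0.26. The filter left out 12 F-box genes. Just inside it were fbxl16, at 1.34 and 0.99 TPM in mutants against 1.00 and 1.61 TPM in controls, and the genes fbxo43, fbxl7 and fbxo6.1 described above. Just outside were fbxl8, at 0.82 and 1.15 TPM in mutants against 0.77 and 0.93 TPM in controls, fbxo6.3, and fbxo36b, at 1.39 and 0.41 TPM in mutants against 0.12 and 0.27 TPM in controls. Of the others left out, those described had a highest value of 0.54 and 0.02 TPM for the fbxo40 identifiers, 0.33 TPM for fbxo44.3, 0.28 TPM for fbxw10, 0.11 TPM for one fbxo41 and 0.07 TPM for fbxo36a. The other fbxo41 and fbxl13 were listed at 0 in all libraries.

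Taken as levels, the F-box genes were led by fbxo2 in both genotypes. In mutants the order of mean TPM was fbxo2 (248 ± 9.45, SD, n = 2), fbxo28 (75.1 ± 8.35), fbxo30 (71.8 ± 4.51), fbxo44.9 (61.5 ± 3.06) and fbxo11a (51.1 ± 0.325). In controls it was fbxo2 (207 ± 3.48), fbxo28 (73.4 ± 2.98), fbxl14 (45.4 ± 1.78, ENSDARG00000045801), fbxo11a (44.7 ± 0.0424) and fbxw11 (34.2 ± 0.431). Thus fbxo30 took rank 3 in mutants and rank 35 in controls. The neighbours fbxo28 and fbxo30 in mutants overlapped, as did fbxl14 and fbxo11a in controls, so that these places in the order are within the spread of the libraries.

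All 71 F-box genes together made up 1124 and 1126 TPM in mutant libraries, against 903 and 914 TPM in control libraries. The sum was 1.24 times as high in mutants, and the genotypes did not overlap, but the exact 2-sided permutation p was 0.333, the smallest that a design with 2 libraries per genotype allows. By family, the mutant mean was 854 ± 0.665 TPM for fbxo genes against 621 ± 10.3 TPM in controls, 176 ± 4.94 against 187 ± 0.679 TPM for fbxl genes and 94.4 ± 5.64 against 101 ± 2.02 TPM for fbxw genes (SD, n = 2 libraries each). The difference of 216 TPM was made up chiefly by fbxo30 (67.1 TPM), fbxo44.9 (52.9), fbxo2 (41.3), fbxo46 (22.9) and fbxo44.1 (21.7), while fbxo5 fell by 25.4 TPM.

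Of 11 tested genes for the SCF core and its E2 enzymes, 7 rose, 1 fell and 3 did not pass. The share called higher was 63.6%, where the background was 28%, and the median log2 change was 0.70, against -0.10 for all tested genes. The adaptor gene skp1 was at 537.64 and 544.93 TPM in mutants against 328.98 and 334.88 TPM in controls (log2 change 0.70, SE 0.0453, adjusted p = 7.2e-05). The E2 gene ube2r2 of the Cdc34 family was at 49.65 and 48.58 TPM in mutants against 14.36 and 14.18 TPM in controls (log2 change 1.71, SE 0.0694). With cdc34b (0.92) and ube2d1b (0.85) these had the lowest p-values of the list. The scaffold gene cul1a fell (-0.29), the other cul1 (ENSDARG00000007691) rose (0.28), and the RING gene rbx1 did not pass (0.09).

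A list drawn up around the attachment of Nedd8 to cullins and the exchange of F-box receptors had 17 tested genes. Of these, 3 rose, 7 fell and 7 did not pass (median log2 change -0.27, against -0.10 for all tested genes). The list was wider than these functions, as it also held glmna, senp8 and sugt1, and sugt1 (-0.39) is among the 7 that fell. The share called lower was 41.2%, near the 37.7% of all tested genes, and the share called higher was 17.6%, against 28%. Their lowest p-values were those of dcun1d3 (1.58), a dcun1d2 (ENSDARG00000041592; 0.73) and the exchange factor gene cand1 (-0.56), followed by nae1 (-0.93), a subunit of the enzyme that activates Nedd8. The exchange factor gene cand1 was at 29.02 and 31.01 TPM in mutants against 44.99 and 44.35 TPM in controls. Of 8 subunit genes of the COP9 signalosome, which removes Nedd8, 2 rose, cops7a (0.48) and cops8 (0.29), 2 fell, cops2 (-0.67) and gps1 (-0.36), and 4 did not pass. The share was 25% in each direction, where the background was 28% higher and 37.7% lower.

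F-box genes outside the symbol rule showed changes of both signs as well. Of 11 tested, 5 rose (45.5%, background 28%), 4 fell (36.4%, background 37.7%) and 2 did not pass. The 11 include fbxw7, which the study chose and which the rule left out. The receptor gene skp2, whose product removes inhibitors of cyclin-dependent kinases, was at 11.51 and 13.80 TPM in mutants against 54.92 and 54.86 TPM in controls (log2 change -2.04, SE 0.0984). Cyclin F, ccnf, was at 7.86 and 8.84 TPM in mutants against 27.72 and 25.18 TPM in controls (-1.55, SE 0.0987). The cyclin E receptor gene fbxw7 was at 106.33 and 98.90 TPM in mutants against 20.33 and 21.17 TPM in controls (2.25, SE 0.0697). Both kdm2b copies rose (ENSDARG00000036593, 1.12; ENSDARG00000046010, 1.17), lmo7b rose by 2.36, and both kdm2a genes fell (kdm2aa, -0.67; the other, -0.82).

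**Figure D5:**
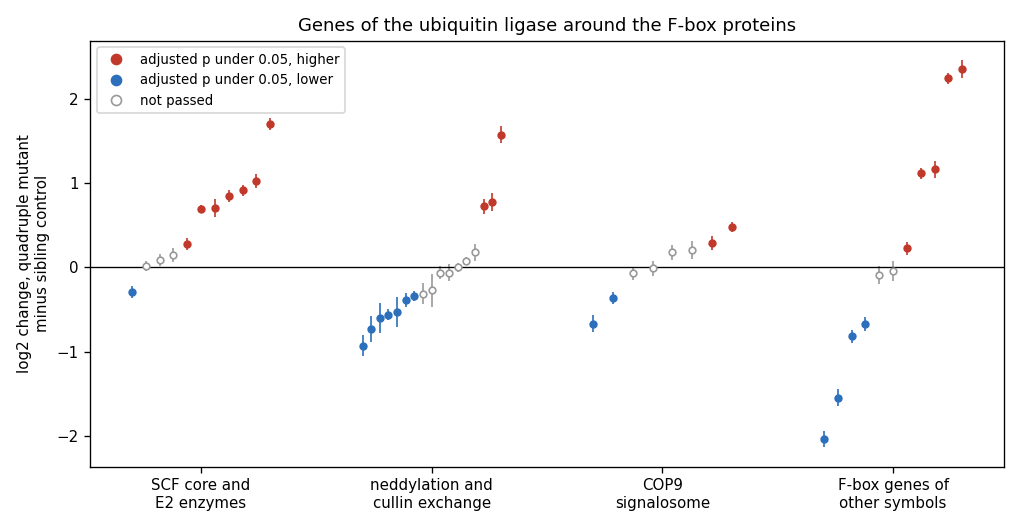
Log2 change (vertical axis, quadruple mutant minus sibling control, with standard error) of each tested gene in 4 lists, filled where called and open where not passed. Of the SCF core and E2 genes 7 of 11 rose and 1 fell, and of the neddylation and exchange genes 3 of 17 rose and 7 fell (backgrounds 28% higher and 37.7% lower). F-box genes outside the symbol rule, fbxw7 included, range from -2.04 for skp2 to 2.36 for lmo7b.

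By position, 63 F-box genes had a symbol found in the RefSeq table of assembly GRCz12tu. Of these 1 gene, fbxo7, shared a chromosome with mdm2, 523 genes away. It did not pass as reported, and among the alternatives it passed as higher only under median ratio scaling (adjusted p = 0.0325).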

How the data were processed

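The authors deposited TPM for 32057 Ensembl gene identifiers, with 2 decimals, in 4 libraries. Named in the submitters' processing notes are the build GRCz11 and the tools RSEM 1.3.3, STAR 2.7.3a, R 4.3.3, HTSeq 0.12.3 and DESeq2 1.42.1. Which of them made the TPM, with what annotation and strand, was not given in the sources used here. As depth is lost in TPM, no count model, counting interval or detection floor was used. A rise in abundant genes lowers the TPM of the rest. Symbols came from a gene name table (28988 identifiers matched) and are in lower case. Genes that reached 1 TPM in 2 or more libraries were fitted as log2(TPM + 1) with limma 3.58.1 (variance trend, R 4.3.3), quadruple mutant minus sibling control, with Benjamini-Hochberg adjustment over all 16172 genes and a threshold of 0.05. The scale understates changes of low genes. The fit was run on simulated data in which few genes were changed, so that run does not give the rate of false calls here. The members, the lists and the rule for named genes were chosen with earlier results of these data known. Apart from an item not reported here, all called F-box genes and all that did not pass are named, and up to 4 genes of each other list by lowest p, with others named after their values were seen. Alternatives were pseudocounts of 0.1 and 5, no filter and a filter of 5 TPM, median ratio and quantile scaling, no variance trend, a replicate block and each library left out, where the lone library of a genotype was assumed to vary like the others. Summaries and figures used pandas 2.3.3, numpy 2.4.6 and matplotlib 3.10.9 under Python 3.11.15.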

Additional observations from a re-analysis of the deposited data

How the results depend on the processing

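Called F-box genes kept their direction under all 12 alternatives wherever they were tested, and 23 of 37 kept their call in each. F-box genes called higher numbered 23 as reported and 17 to 30 under the alternatives. Those called lower numbered 14 as reported, 8 under median ratio scaling, and 7 to 11 with 1 library left out. The summed F-box difference of 216 TPM was 313 TPM under median ratio scaling and 210 to 221 TPM with 1 library left out. Calls over all genes numbered 3510 to 3902 higher and 4169 to 6115 lower with 1 library left out, and the share of them that was higher was 51.3% under median ratio scaling against 42.6%. With the replicate block 23 F-box genes were higher and 11 lower; the titles give only shared numbers, and replicate differences hardly correlated between genotypes across genes (Pearson's r 0.0488). Of the 22 genes that did not pass, 8 passed under at least 1 alternative. With unknown depth, counting error of low genes cannot be given.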
